A study of Solanum lycopersicum x Solanum pennellii and Solanum lycopersicum with 17 samples.

Results

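Transcripts of COP1, of phytochrome A and of the cryptochromes were examined in carpels of tomato (Solanum lycopersicum) collected 7 days after pollination. The members were all probe sets whose symbol in the platform annotation is COP1, PHY with a letter A to F, or CRY with a digit. They numbered 6 of 10101 tested probe sets, for 5 genes: COP1, PHYA, CRY1A with 2 probe sets, Cry1b and CRY2. Each was on the array for all samples and none was removed by a filter.

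The carpels came from 17 samples, each on 1 Affymetrix tomato genome array. M82, the parental cultivar, gave 6 arrays and served as the control. The introgression lines gave 4 arrays (IL-1_1), 3 arrays (IL-1_4) and 4 arrays (IL-2_3). Each line carries a segment of the wild species Solanum pennellii in the M82 background, all plants were grown in a greenhouse and treated alike, and the design text calls the lines hybrids without stating whether the segment was homozygous. Whether arrays of a group stem from separate plants is not stated in the labels. Each p-value therefore reflects only the spread between these samples, which may be technical. Chromosome positions were not used here, so it was not examined whether any of the 5 genes lies in an introgressed segment.

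Plants read light through phytochromes, which sense red and far-red light, and cryptochromes, which sense blue light. COP1 is a ubiquitin ligase that in darkness marks light-promoting transcription factors such as HY5 for degradation, and activated photoreceptors restrain it. In tomato this pathway is known for setting the pigment content of fruit: the high-pigment mutants are altered in DDB1 and DET1, partners of the same ubiquitin ligase machinery.

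Values are the deposited log2 probe set intensities, so a difference of 1 is a doubling. Array medians lay between 9.97 and 10.04, and array minima between 3.31 and 3.60. Group levels carry the SD between arrays, and differences carry the SE of a limma fit over all 17 arrays. A probe set was called at a Benjamini-Hochberg adjusted p under 0.05 over all tested probe sets. Levels of different probe sets are not comparable, so each member is compared only with itself. Marker levels are set beside the array minima and medians, or averaged over a list, only as a rough description. As bulk tissue was measured, fewer cells that express a gene and less RNA per cell cannot be told apart.

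Arrays differed in ways that the groups do not explain. On the main axis of variation within M82, IL-1_4 and IL-2_3, the M82 scores spanned -36.7 to 43.2. Those of IL-1_1 spanned 3.49 to 52.7, those of IL-1_4 -16.7 to -12.8 and those of IL-2_3 -14.0 to 33.3. M82 replicates 1 (43.2) and 6 (11.2) and IL-2_3 replicate 4 (33.3) lay among the IL-1_1 arrays on it. Markers of carpel and young fruit differed in level. TAGL1, a MADS-box gene of the carpel, stood at 10.96 ± 0.14 (SD, n = 6) in M82, TDR6 at 12.63 and fsm1 at 10.61 ± 1.45. OVATE and TDR4 stood below the array medians, at 8.85 and 8.61 in M82. The style gene Stig1 stood at 4.19 ± 0.22 and the pollen receptor kinase genes PRK1, PRK2 and PRK3 at 4.57, 3.97 and 3.88 there, all near the array minima. TCTP, the fourth gene on the pollen list, was bright at 14.13 in M82 and 14.25 in IL-1_1. In limma 0 of the 4 pollen list genes were called in any comparison with M82, and 0 had an unadjusted p under 0.05. Of all tested probe sets 12.2%, 0.644% and 0.901% were called in IL-1_1, IL-1_4 and IL-2_3, and 33.5%, 3.52% and 4.66% had such a p. The 5 carpel and young fruit probe sets averaged 9.63 to 11.3 over M82 arrays and 10.9 to 11.6 over IL-1_1 arrays. Of these, fsm1, a gene of early fruit growth, and TDR4, a MADS-box gene, were higher in IL-1_1 than in M82 by 2.01 ± 0.59 and 1.31 ± 0.37 (limma adjusted p = 0.0393 and 0.0356). These 2 calls of 5 stand beside 12.2% of all probe sets called, 6.4% as higher. OVATE gave 1.17 ± 0.54, TDR6 0.25 ± 0.09 and TAGL1 -0.03 ± 0.08, none called (limma adjusted p = 0.142, 0.0765 and 0.84). An unadjusted p under 0.05 was reached by 4 of the 5, beside 33.5% of all probe sets. TDR4 differed from M82 by a similar size in IL-1_4 (1.25 ± 0.41) and IL-2_3 (1.38 ± 0.37), without a call (limma adjusted p = 0.622 and 0.181), and fsm1 by 0.62 and 0.53. The part of these marker differences in the results for IL-1_1 was not tested.

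COP1 was higher in IL-1_1 than in M82, by 1.58-fold (95% interval 1.21 to 2.06), and it was the single member called in a comparison with M82. No member was called in IL-1_4 or IL-2_3 against M82. CRY2, a blue-light receptor, differed in IL-1_1 by a similar size but lay just outside the threshold. The main CRY1A probe set differed by nearly 0 in IL-1_1.

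The COP1 probe set, Les.71.1.S1_at, read 11.28, 10.96, 10.79 and 11.24 in the 4 IL-1_1 arrays. In M82 its lowest, median and highest values were 10.05, 10.37 and 10.98. The IL-1_4 arrays read 10.42, 10.21 and 10.29, and the IL-2_3 arrays 10.32, 10.53, 10.48 and 11.13. Thus all IL-1_1 arrays were above 5 of the 6 M82 arrays, and 2 of them overlapped with M82 replicate 1, the brightest of its group. Of the IL-2_3 arrays, replicate 4 alone reached the IL-1_1 range.

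In group means COP1 ranked IL-1_1 first at 11.07 ± 0.24 (SD, n = 4), then IL-2_3 at 10.62 ± 0.35 (n = 4), M82 at 10.41 ± 0.33 (n = 6) and IL-1_4 at 10.31 ± 0.11 (n = 3). The difference between IL-1_1 and M82 was 0.66 ± 0.18 (limma adjusted p = 0.0319), beside 12.2% of all tested probe sets called in this comparison, 6.4% of them as higher. One call among 6 members is thus near that background. IL-1_1 also exceeded IL-1_4, by 0.76 ± 0.21 (adjusted p = 0.0272), where 17.6% of all probe sets were called (1776, and 606 to 2497 with 1 array left out). Here the 4 IL-1_1 arrays lay above all 3 IL-1_4 arrays, as did those of 17.5% of all probe sets. Of the neighbours in that order, IL-1_1 and IL-2_3 differed by 0.45 ± 0.20, with a 95% interval of 0.03 to 0.87 that lies above 0 and an unadjusted p of 0.0373, but without a call (limma adjusted p = 0.192). The other neighbours did not differ beyond their spread: IL-2_3 against M82 gave 0.20 ± 0.18 (0.999) and IL-1_4 against M82 -0.11 ± 0.20 (0.9997), both adjusted p from limma.

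**Figure D1:**
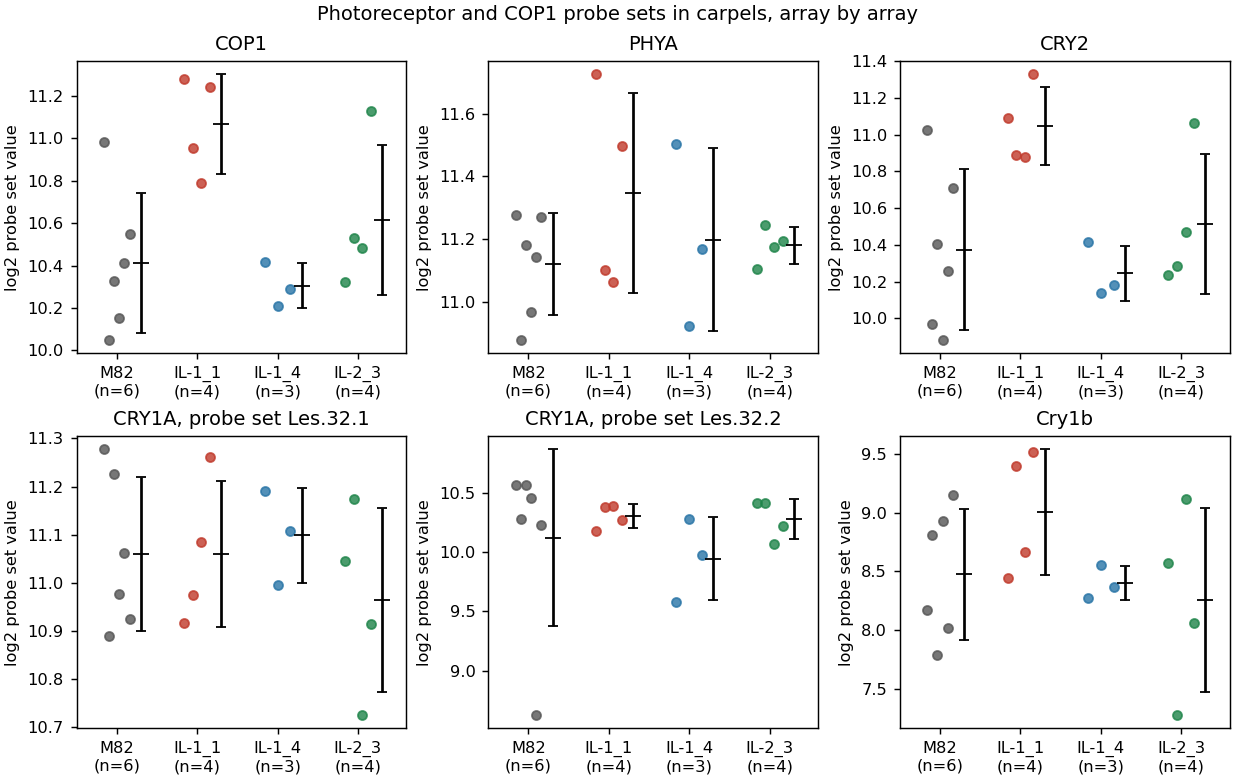
Log2 probe set values (vertical axes) of the 6 member probe sets in every array, by group (horizontal axes); dots are arrays, and the bar beside them is the mean ± SD. COP1 and CRY2 are highest in the 4 IL-1_1 arrays, 1 M82 array and 1 IL-2_3 array, and CRY1A probe set Les.32.2 has 1 M82 array at 8.63.

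The COP1 call for IL-1_1 against M82 depended on single arrays. It was lost without M82 replicate 2, 3, 4 or 5 (limma adjusted p = 0.0714, 0.0591, 0.0685 and 0.0572) and without IL-1_1 replicate 1 or 4 (0.104 and 0.102). Without M82 replicate 1 the difference was 0.77 (adjusted p = 0.00452). With the scores on the within-group axis as a covariate it was 0.31 ± 0.10 (adjusted p = 0.107), and with IL-1_1 and M82 alone in the fit the adjusted p was 0.0724. The axis scores averaged 24.9 in IL-1_1 and -8.24 in M82, so covariate and line are partly confounded. The direction of the COP1 difference was the same in all 27 alternatives, in which it ran from 0.31 to 0.77 and 17 kept the call. Fits without an IL-1_4 or IL-2_3 array cannot move this difference and act only through the shared spread and the adjustment. The fit without M82 replicate 1 and IL-2_3 replicate 4 dropped them for their likeness to IL-1_1, which favours a larger difference. The count of 17 is therefore no measure of support. The call against IL-1_4 was lost without IL-1_1 replicate 1 or 4 or any 1 IL-1_4 array, and with the axis covariate (0.34, limma adjusted p = 0.116).

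**Figure D2:**
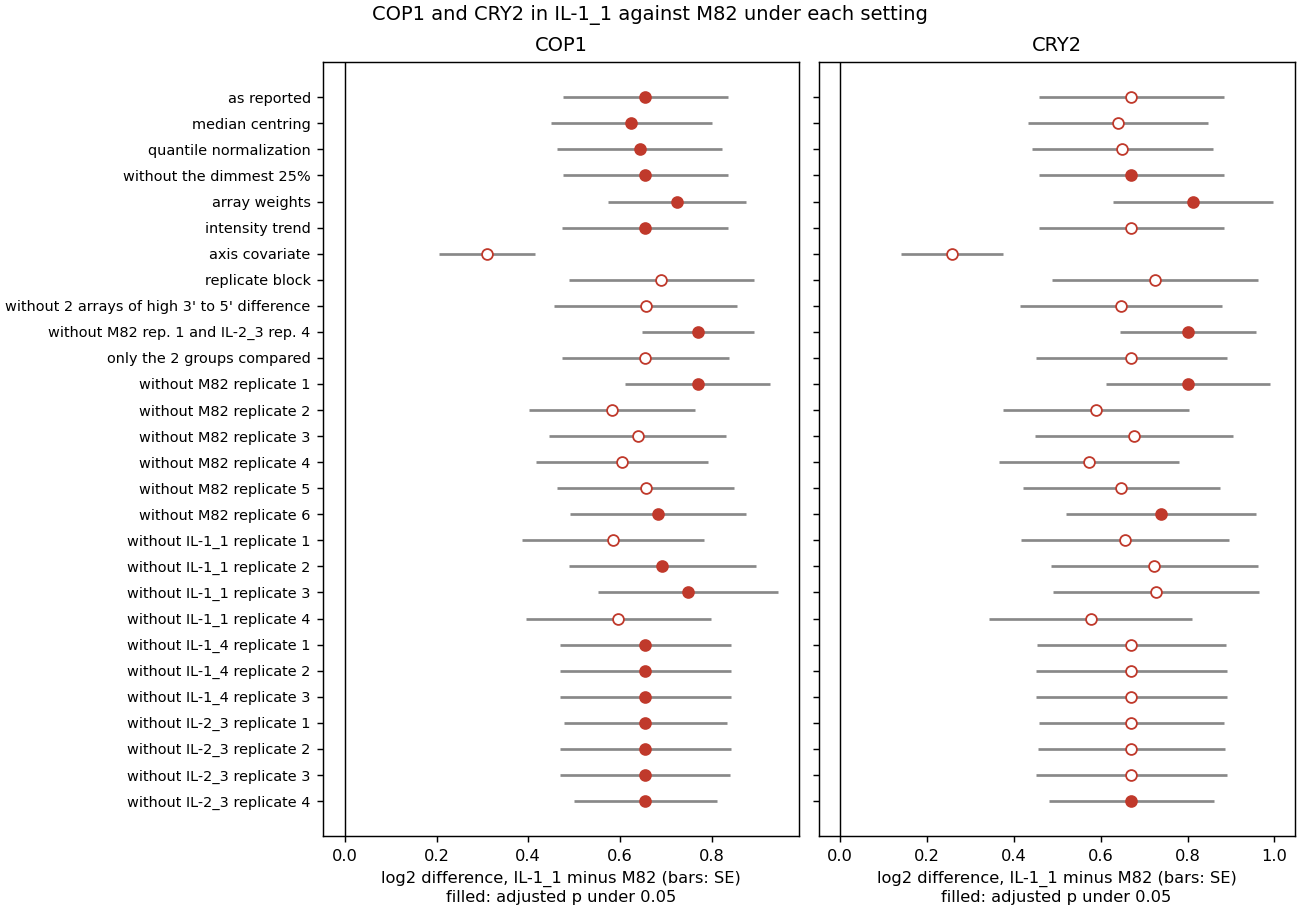
Log2 difference between IL-1_1 and M82 (horizontal axis; dots with SE bars) for COP1 (left) and CRY2 (right) as reported and under each of 27 alternatives (vertical axis). Filled dots passed the adjusted p threshold: 17 alternatives for COP1 and 6 for CRY2, all with a difference above 0. Fits without an IL-1_4 or IL-2_3 array cannot move the difference.

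Phytochrome A, the receptor of far-red light, showed no called difference. PHYA (probe set Les.87.1.S1_a_at) read 11.73, 11.10, 11.06 and 11.50 in IL-1_1, and its lowest, median and highest values in M82 were 10.88, 11.16 and 11.28. The IL-1_1 arrays were split, with replicates 1 and 4 above all M82 arrays and replicates 2 and 3 inside their range. The difference was 0.23 ± 0.14 (limma adjusted p = 0.256), with a 95% interval of -0.07 to 0.52.

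In IL-1_4, PHYA read 11.50, 10.92 and 11.17, so that 1 of 3 arrays lay above M82. IL-2_3 read 11.10, 11.25, 11.17 and 11.19, the tightest group with an SD of 0.06. Differences from M82 were 0.08 ± 0.15 for IL-1_4 and 0.06 ± 0.14 for IL-2_3, and their intervals reached 0.40 and 0.36 at most. In these comparisons 0.644% (IL-1_4) and 0.901% (IL-2_3) of all probe sets were called.

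Among the cryptochromes, CRY2 had the pattern most like that of COP1. CRY2 (probe set Les.8.1.S1_at) read 11.09, 10.89, 10.88 and 11.33 in IL-1_1, against a lowest, median and highest value of 9.88, 10.33 and 11.02 in M82. All 4 IL-1_1 arrays exceeded 5 of the 6 M82 arrays, and replicates 1 and 4 exceeded all of them. The IL-1_4 arrays read 10.42, 10.14 and 10.18, and the IL-2_3 arrays 10.24, 10.28, 10.47 and 11.06.

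The CRY2 difference between IL-1_1 and M82 was 0.67 ± 0.21, a 1.59-fold higher level (95% interval 1.16 to 2.18), with an adjusted p of 0.051 in limma, and was not called. It passed in 6 of 27 alternatives, such as the fit without M82 replicate 1 (0.80, limma adjusted p = 0.00897). That fit drops the M82 array with the highest CRY2 value (11.02), which favours a larger difference. As for COP1, the count of alternatives is no measure of support. With the axis covariate the CRY2 difference was 0.26 (adjusted p = 0.234). Against IL-1_4, CRY2 in IL-1_1 was higher by 0.80 ± 0.25 (limma adjusted p = 0.0415), beside 17.6% of all probe sets called. All IL-1_1 arrays lay above all IL-1_4 arrays, as for 17.5% of all probe sets. That call was lost without IL-1_1 replicate 1 or 4, any 1 IL-1_4 array, M82 replicate 3 or IL-2_3 replicate 3, and with the axis covariate (0.30, limma adjusted p = 0.226). Against IL-2_3 it gave 0.53 ± 0.23 (adjusted p = 0.192), where 4.87% of all probe sets were called (492, and 299 to 834 with 1 array left out).

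CRY1A, a blue-light receptor of the CRY1 type, differed little between groups in its first probe set, Les.32.1.S1_at. It read 10.92, 10.98, 11.08 and 11.26 in IL-1_1, and from 10.89 to 11.28 with a median of 11.02 in M82. The groups overlapped fully, and the difference was 0.00 ± 0.11 with a 95% interval of -0.22 to 0.22. In IL-1_4 it was 0.04 ± 0.12 and in IL-2_3 -0.10 ± 0.11 relative to M82, neither called.

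The second CRY1A probe set, Les.32.2.S1_a_at, held 1 array far from the others. M82 replicate 5 read 8.63, and the other 5 M82 arrays lay between 10.23 and 10.57. IL-1_1 read 10.18, 10.38, 10.39 and 10.28, IL-2_3 10.41, 10.42, 10.07 and 10.22, and IL-1_4 9.58, 10.28 and 9.97. The difference between IL-1_1 and M82 was 0.18 ± 0.30 with all arrays and -0.12 ± 0.13 without M82 replicate 5, called in neither (limma adjusted p = 0.676 and 0.565). That between IL-1_4 and M82 was -0.17 ± 0.33 and, without that array, -0.47 ± 0.14 (adjusted p = 0.354). Over the 17 arrays the 2 CRY1A probe sets correlated at r = 0.06, a description of arrays that share groups and processing.

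Cry1b, the other gene of the CRY1 type, had the largest residual SD of the 6 members, 0.57 over the 4 groups, and an SD of 0.78 in IL-2_3. CRY1A probe set Les.32.2 had a wider SD than Cry1b in M82 (0.75 against 0.56) and in IL-1_4 (0.35 against 0.14). The Cry1b probe set Les.3488.1.S1_at read 8.44, 9.40, 8.66 and 9.52 in IL-1_1, and its lowest, median and highest M82 values were 7.79, 8.49 and 9.15. IL-1_4 read 8.27, 8.56 and 8.37, and IL-2_3 8.57, 7.28, 9.11 and 8.06. The difference of IL-1_1 from M82 was 0.53 ± 0.35 (limma adjusted p = 0.29), with a 95% interval of -0.21 to 1.26 that holds both 0 and the COP1 and CRY2 differences.

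**Figure D3:**
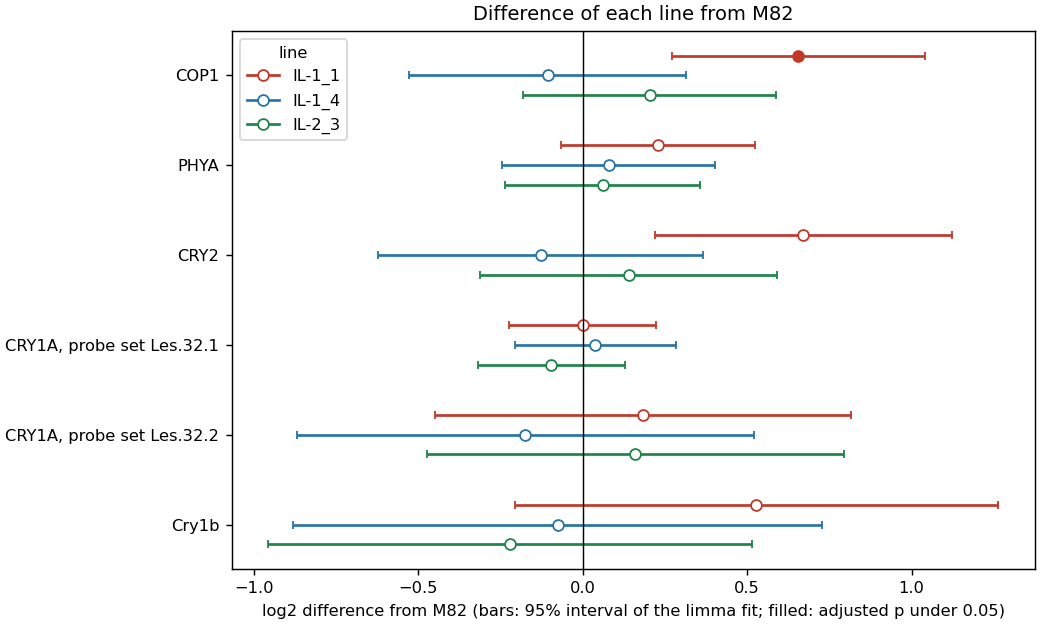
Log2 difference of each introgression line from M82 (horizontal axis) for the 6 member probe sets (vertical axis), with 95% intervals of the limma fit; the filled dot passed the adjusted p threshold. The filled dot is COP1 in IL-1_1 at 0.66, and the CRY2 interval for IL-1_1 runs from 0.22 to 1.12.

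Over all 6 members the differences from M82 had a median of 0.38 in IL-1_1 (5 of 6 above 0), -0.09 in IL-1_4 (2 of 6 above 0) and 0.10 in IL-2_3 (4 of 6 above 0). The 6 include 2 probe sets of CRY1A, of which Les.32.2 went from 0.18 to -0.12 in IL-1_1 without M82 replicate 5. Over all 10101 tested probe sets the medians were -0.02, 0.02 and 0.00, with 4740, 5629 and 5135 probe sets above 0. These comparisons share the M82 arrays. Between lines, 2 of 6 members were called in IL-1_1 against IL-1_4, COP1 and CRY2, beside 17.6% of all probe sets. In limma 0 were called in IL-1_1 against IL-2_3, beside 4.87%, and 0 in IL-1_4 against IL-2_3, beside 1.54%. At an unadjusted p under 0.05, 2 of 6 members passed in IL-1_1 against M82, where 33.5% of all probe sets did. In IL-1_1 against IL-1_4 it was also 2 of 6, where 36.8% did. In IL-1_1 against IL-2_3 2 of 6 passed, where 23.2% of all probe sets did, and 0 in IL-1_4 against IL-2_3, where 8.62% did. For IL-1_4 and IL-2_3 against M82 that count was also 0, beside 3.52% and 4.66%. With 6 members these counts are near their backgrounds.

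COP1 and CRY2 varied together from array to array. Over the 17 arrays r was 0.963 and rho 0.975, and without the 2 arrays farthest from the COP1 median r was 0.954. Within the 6 M82 arrays r was 0.949, and with group means subtracted it was 0.932 over the 17. Among the other 908 probe sets with a symbol CRY2 stood first in likeness to COP1 by plain values, and it stood 7th among all 10100 other tested probe sets. With group means subtracted its rank among the 10100 was 46. Such likeness was not rare: 244 of those (2.42%) had an r above 0.9 with COP1. Both genes follow the axis of variation within groups, with r = 0.908 for COP1 and 0.923 for CRY2, and the median absolute r of all probe sets with it was 0.589.

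PHYA was less like COP1 (r = 0.663), and Cry1b and the CRY1A probe sets were little like it (r = 0.152, 0.131 and 0.137). These values describe arrays that share group, processing and the axis of variation, and no p is given for them.

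**Figure D4:**
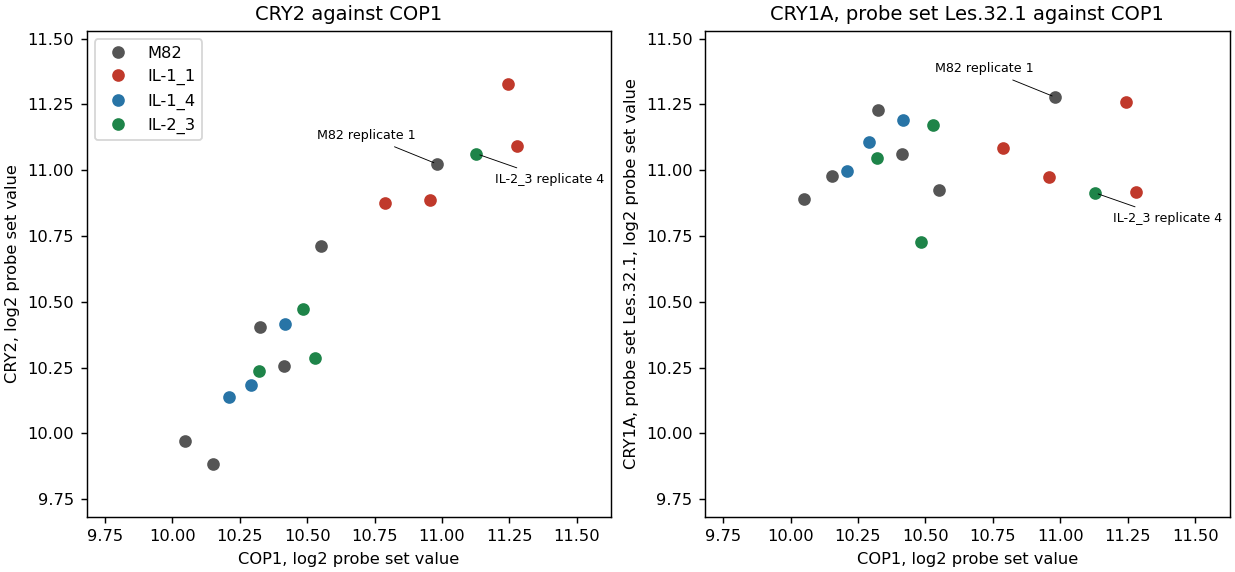
Log2 values of CRY2 (left) and of CRY1A probe set Les.32.1 (right) on the vertical axes against COP1 on the horizontal axes, 1 dot per array and 1 colour per group. CRY2 climbs with COP1 (r = 0.963), and M82 replicate 1 and IL-2_3 replicate 4 lie among the IL-1_1 arrays, while CRY1A shows no such climb (r = 0.131).

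The named genes most like COP1, apart from members, were sought among 696 probe sets with a symbol, over the 17 arrays. With group means subtracted they were GBF4 (r = 0.951, rho = 0.961), URED (0.948, 0.909) and OPT1 (0.935, 0.951). By plain values they were URED (0.951, 0.924), ALPHA-DOX2 (0.948, 0.917) and WRKY2 (0.941, 0.931). Likeness by plain values includes the differences between groups, so the levels of those 3 genes in IL-1_1 are a description with no test. IL-1_1 minus M82 was 0.67 for URED, 0.57 for ALPHA-DOX2 and 0.89 for WRKY2. It was 0.41 for GBF4 and -0.03 for OPT1.

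Genes that work with or downstream of the photoreceptors showed no called difference from M82 in any line. The list of signalling partners held 6 probe sets: HY5, a transcription factor that COP1 targets; DET1, DDB1 and CUL4, parts of a ubiquitin ligase machinery; csn5, a subunit of the COP9 signalosome; and CO1. In IL-1_1 0 of 6 were called by limma, beside 12.2% of all probe sets, and 1 had an unadjusted p under 0.05, beside 33.5%. Their median difference was -0.01. DDB1 averaged 11.43 ± 0.09 (SD, n = 6) in M82 against 11.23 ± 0.05 (n = 4) in IL-1_1, a difference of -0.20 ± 0.07 (limma adjusted p = 0.0578). All 4 IL-1_1 values of DDB1 lay between 11.17 and 11.29 and all 6 of M82 between 11.31 and 11.56, so that the groups did not overlap, as for 7.31% of all probe sets. CUL4 gave 0.19 ± 0.13 (adjusted p = 0.31). HY5 gave -0.12 ± 0.21 (0.701) and DET1 0.06 ± 0.12 (0.735), listed here as the direct target and the high-pigment gene.

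Photosynthesis genes, which light induces in green tissue, were represented by CAB4, CAB5 and CAB6A for chlorophyll a/b-binding proteins and by PSBO for a protein of photosystem II. In IL-1_1 0 of 4 were called by limma, beside 12.2% of all probe sets, with a median of -0.17. An unadjusted p under 0.05 was reached by 0 of 4, beside 33.5%. CAB4 spanned 10.17 to 13.56 in M82 and 10.27 to 13.12 in IL-1_1, a difference of -0.47 ± 0.62 (limma adjusted p = 0.611). CAB5 gave -0.36 ± 0.87 (adjusted p = 0.782). The spread within groups was wide here, and the CAB4 interval ran from -1.79 to 0.86.

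Flavonoid genes were CHS1 and CHS2, for chalcone synthase at the entry of the pathway, DFR, for a reductase on the way to anthocyanins, and ANT1, a MYB factor that activates anthocyanin synthesis. In IL-1_1 0 of 4 were called by limma, beside 12.2% of all probe sets, and 1 (DFR) had an unadjusted p under 0.05, beside 33.5%. Their differences had a median of -0.13 and ran from -0.69 to 0.99, with 2 of 4 above 0. DFR read 6.01 ± 0.48 (SD, n = 4) against 6.70 ± 0.53 (n = 6) in M82, a difference of -0.69 ± 0.29 (limma adjusted p = 0.114). ANT1, with an M82 level of 3.85 near the array minima, gave 0.08 ± 0.05 (adjusted p = 0.321). In IL-1_4 and in IL-2_3 0 of these 14 probe sets were called by limma, and 0 had an unadjusted p under 0.05. Of all tested probe sets 0.644% and 0.901% were called there, and 3.52% and 4.66% had such a p. With 14 probe sets these counts are near their backgrounds.

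**Figure D5:**
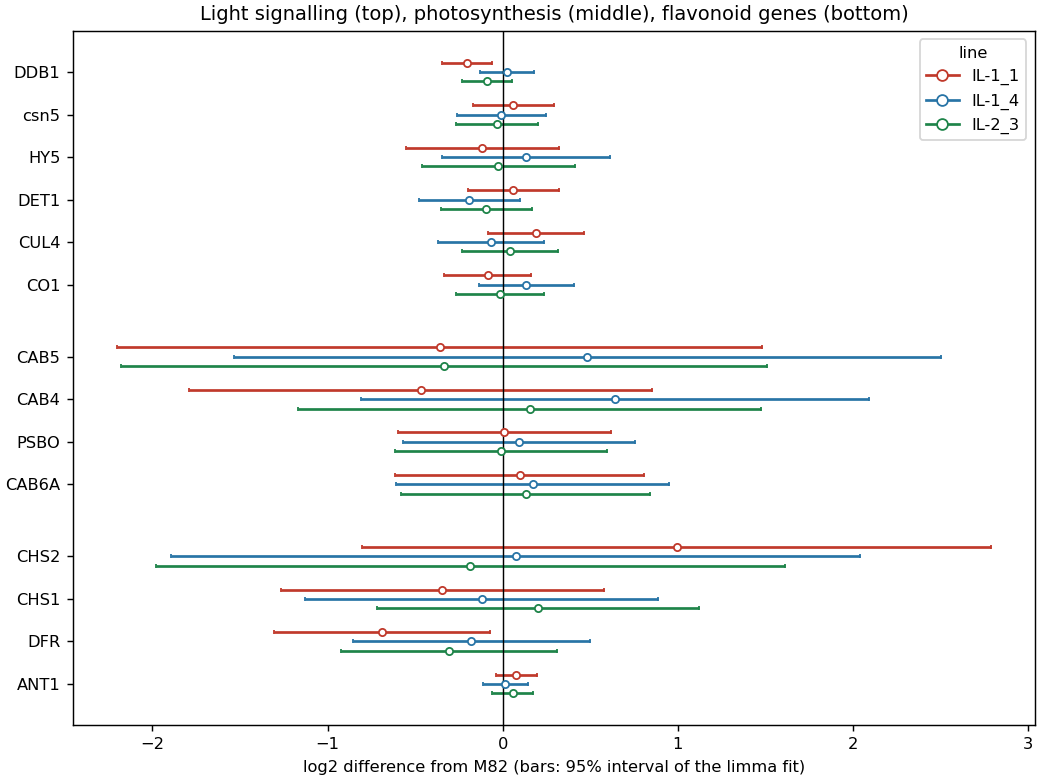
Log2 difference of each line from M82 (horizontal axis, with 95% intervals of the limma fit) for 14 probe sets of light signalling partners, photosynthesis genes and flavonoid genes (vertical axis). No dot passed the adjusted p threshold, and the intervals of CAB5, CAB4 and CHS2 are the widest.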

How the data were processed

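The authors deposited log2 values, 1 column per array, and these were analysed without further normalization. They were made with affy, per the submitters' processing notes, with no version, background or summarization step stated there. Base 2 is an inference from the range of values. Of 10209 probe sets, 108 were controls and were set aside. The remaining 10101 were fitted with limma 3.58.1 in R 4.3.3 as 4 group means without covariates, and tested two-sided. Symbols came from the platform annotation of 2007: 909 probe sets had 1, 0 had several and 9192 had none.

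All member probe sets are named. From each pathway list the called probe sets are named or, with none called, the 2 with the smallest p in IL-1_1. Also named are the 3 most like COP1 by either correlation. HY5, DET1 and the markers outside this rule were chosen after their values were seen. Alternatives were other normalizations, a filter on dim probe sets, array weights, an intensity trend, the replicate block, fewer arrays and, as a covariate, scores on the first principal component of the residuals of M82, IL-1_4 and IL-2_3. Members and lists were chosen with earlier results of these data known. No light-signalling list was tested as a set. In simulated data for IL-1_1 against M82 with 10101 probe sets, 52%, 70%, 82% and 100% of 50 probe sets each changed by 0.5, 0.75, 1 and 2 were recovered. The simulated data gave 160 calls, 8 of them false, against 1233 calls in the real data. The adjustment therefore works at another threshold there, and these rates do not carry over to single members. Precision is limited by the 17 arrays.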

Additional observations from a re-analysis of the deposited data

Results flagged for a closer look

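The value of CRY1A probe set Les.32.2 in M82 replicate 5 stood apart: its gap to the nearest M82 array was 0.825 of the range of the 6 arrays. Of 18 sets of arrays checked in this way 1 stood out, and chance gives about 1 in 20. M82 replicate 5 (0.25) and IL-1_4 replicate 1 (0.19) had the highest difference between 3-prime and 5-prime control probe sets of actin and GAPDH, the others lying between -0.10 and 0.16, and they read lowest for this CRY1A probe set, at 8.63 and 9.58. The correlation with that difference over 17 arrays was -0.666 and without these 2 arrays 0.07, so the relation rests on them, and its part in the result was not tested.

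In the direct comparison of IL-1_1 with IL-1_4, 2 of 6 members were called, beside 17.6% of all probe sets: COP1 was higher in IL-1_1 by 0.76 and CRY2 by 0.80. The COP1 call was lost without IL-1_1 replicate 1 or 4 or any IL-1_4 array (limma adjusted p = 0.0743, 0.0707, 0.0606, 0.0944 and 0.0844). The CRY2 call was lost without the same arrays (0.0877, 0.102, 0.0729, 0.126 and 0.119), and without M82 replicate 3 (0.0528) or IL-2_3 replicate 3 (0.0503). A control probe set for phytochrome B2 was higher in IL-1_1 than in IL-1_4 by 1.10.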

How the results depend on the processing

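For IL-1_1 against M82, 1 member was called as reported. The count was 0 with the axis covariate, with the replicate block, without the 2 arrays of highest 3-prime to 5-prime control difference and with only the 2 groups compared. It was 2 without the dimmest 25% of probe sets, with array weights and without M82 replicate 1 and IL-2_3 replicate 4 together, and 0 to 2 with 1 array left out. For IL-1_1 against IL-1_4 it was 2 as reported, 0 with the axis covariate, the replicate block or without those 2 arrays of high control difference, and 0 to 2 with 1 array left out. Over all probe sets the calls were 730, 1826 and 950 in those settings, against 1776 as reported. For IL-1_1 against IL-2_3 the member count was 0 as reported, and 2 with array weights or without M82 replicate 1 and IL-2_3 replicate 4. Calls over all probe sets rose there from 492 to 1427 and 1548. Of the light pathway probe sets 0 were called as reported, 1 (DDB1, limma adjusted p = 0.0347) with median centring, 1 without M82 replicate 1 and IL-2_3 replicate 4 (0.0453), and 0 to 1 with 1 array left out. The cause of these changes was not tested. The counts of members for the other 3 comparisons were 0 throughout. M82 replicate 1 and IL-2_3 replicate 4 were left out together because they lay among the IL-1_1 arrays on the first principal component of all arrays. That choice favours larger differences of IL-1_1, so the counts from this setting are no support for them.

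Over all probe sets, the 1233 calls for IL-1_1 against M82 were 421 to 3079 with 1 array left out, 377 with only the 2 groups, 537 with the axis covariate, 555 without the arrays of high control difference, 815 with the replicate block, 2315 with array weights and 3302 without M82 replicate 1 and IL-2_3 replicate 4. With 1 array left out, the 1776 calls for IL-1_1 against IL-1_4 were 606 to 2497; they fell to 736, 668 and 606 without IL-1_4 replicate 1, 2 or 3 and to 909 and 956 without IL-1_1 replicate 1 or 4. The 492 calls for IL-1_1 against IL-2_3 were 299 to 834; they were 310, 299 and 316 without IL-2_3 replicate 1, IL-2_3 replicate 2 or IL-1_1 replicate 4, and 787 and 834 without M82 replicate 1 or IL-2_3 replicate 4. Replicate numbers are shared between groups and were not taken as pairs in the main fit. Of 21 same-numbered pairs, 10 had deviations correlated above 0.1 (from -0.71 to 0.61). Differently numbered pairs were not compared, so whether a number marks shared processing was not tested. With the replicate block COP1 gave 0.69 for IL-1_1 against M82 (adjusted p = 0.06).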

Other observations

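The array also carries control probe sets for phytochrome B2, a red-light receptor, named PhyB2 in their identifiers and not in the symbol table. Their comparison was added after they were seen, in a limma fit that keeps the control probe sets. The 3-prime probe set read 8.73, 8.18, 8.22 and 8.57 in IL-1_1 and 7.65, 7.12 and 7.20 in IL-1_4. It averaged 8.42 ± 0.27 (SD, n = 4) in IL-1_1, 7.79 ± 0.53 (n = 6) in M82, 7.73 ± 0.40 (n = 4) in IL-2_3 and 7.32 ± 0.29 (n = 3) in IL-1_4. IL-1_1 arrays lay above all IL-1_4 arrays, as did those of 17.5% of the 10101 tested probe sets. The IL-1_1 values overlapped with M82, whose values ran from 7.07 to 8.46.

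IL-1_1 exceeded IL-1_4 by 1.10 ± 0.30 in this probe set (limma adjusted p = 0.0247), beside 17.4% of all 10209 probe sets called. The call was lost without IL-1_1 replicate 1 or 4 or IL-1_4 replicate 2 or 3 (0.0687, 0.0609, 0.0945 and 0.09), and with the axis covariate (0.62, adjusted p = 0.161). Against M82 the difference was 0.64 ± 0.25 (0.101) and not called; it passed without M82 replicate 1 (0.77, 0.0282). Its correlation with COP1 over the 17 arrays was 0.834. The middle and 5-prime probe sets of phytochrome B2 stood at 4.30 ± 0.08 and 4.68 ± 0.19 (n = 6) in M82, near the array minima, and gave 0.02 and 0.17 for IL-1_1 against M82 (limma adjusted p = 0.838 and 0.308).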
